A study of Mus musculus with 2 samples.

Results

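Wnt targets and modulators of the noise-exposed mouse cochlea were followed through 10 genes, namely Axin2, Nkd1, Lef1, Notum, Znrf3, Lgr5, Lgr6, Tnfrsf19, Sfrp1 and Dkk3. They were taken by symbol from the 32285 genes of the count matrices, and all 10 were detected in both libraries. The AAV-Isl1 plus noise library came from ears of CBA/CaJ mice aged 4 to 6 weeks that had been given Isl1, the gene of a LIM homeodomain transcription factor, by an adeno-associated virus and were exposed to noise of 105 dB between 1 and 20 kHz for 2 h. The noise-only library came from the opposite, untreated ears of the same mice after the same noise. Tissue was taken 2 days after the noise, material of 5 mice was pooled for each library, and mRNA was counted in single cells as UMIs (unique molecular identifiers, 1 for each captured molecule). With 1 pooled library per group there was no spread between animals to test against, so no p-value is given. All intervals are 95% intervals for counting error only, and each comparison is one of these libraries, not of the treatments in general.

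Wnt proteins bind Frizzled receptors together with Lrp5 or Lrp6, which spares beta-catenin from a destruction complex and lets it switch on genes together with TCF/LEF factors. Many of these genes limit the signal in turn, and their RNA is widely used as a sign of an active pathway. In the mouse cochlea, Lgr5 is known from supporting cells that can give rise to new hair cells, and Axin2 from cells under the basilar membrane. Axin2 is a scaffold of the destruction complex, Nkd1 binds Dishevelled and dampens the signal, and Lef1 is a TCF/LEF factor that is itself a target. Notum is a secreted enzyme that removes the lipid of Wnt proteins, and Znrf3 is a ubiquitin ligase that clears Frizzled from the membrane. Lgr5 and Lgr6 are receptors of R-spondins, which hold back Znrf3. Tnfrsf19 is a member of the TNF receptor family known as a Wnt target in several tissues. Sfrp1 is a secreted protein that binds Wnt proteins, and Dkk3 is a secreted protein of the Dickkopf family.

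Promoters are shown for Nkd1 and Tnfrsf19, whose lower level in the AAV-Isl1 plus noise library is the main question, and for the widely used targets Axin2 and Lef1. The RefSeq table for GRCm38.p6, with 250 bases before and 50 bases after each start, held 5 of the 10 genes (Axin2, Nkd1, Lef1, Lgr6 and Tnfrsf19). A TCF/LEF hexamer was searched on both strands, as CTTTGA or its reverse complement TCAAAG, and matches are in capitals. It occurred in 16.0% of all 32851 promoters of the table. Among the 5 genes it occurred in 1 of 4 starts of Lef1, with 2 matches, and in 1 of 2 starts of Tnfrsf19, with 1 match. The windows run 5′ to 3′ on the strand of the gene and lie at chr11:108920099-108920398 (plus strand) for Axin2, chr8:88527383-88527682 (plus strand) for Nkd1, chr3:131156044-131156343 (plus strand) for the Lef1 start with matches and chr14:61037938-61038237 (minus strand) for the Tnfrsf19 start with a match.
Axin2: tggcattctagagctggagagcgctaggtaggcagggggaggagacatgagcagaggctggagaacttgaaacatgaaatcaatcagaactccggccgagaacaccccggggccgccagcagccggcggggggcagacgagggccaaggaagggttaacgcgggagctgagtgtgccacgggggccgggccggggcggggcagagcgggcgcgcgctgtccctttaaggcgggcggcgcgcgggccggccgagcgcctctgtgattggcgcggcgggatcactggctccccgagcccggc
Nkd1: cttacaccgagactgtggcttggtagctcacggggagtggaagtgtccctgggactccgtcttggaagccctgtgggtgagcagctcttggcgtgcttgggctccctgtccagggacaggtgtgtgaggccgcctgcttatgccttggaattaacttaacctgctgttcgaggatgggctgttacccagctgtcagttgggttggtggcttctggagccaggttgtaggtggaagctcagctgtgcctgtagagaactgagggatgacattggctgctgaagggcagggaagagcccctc
Lef1: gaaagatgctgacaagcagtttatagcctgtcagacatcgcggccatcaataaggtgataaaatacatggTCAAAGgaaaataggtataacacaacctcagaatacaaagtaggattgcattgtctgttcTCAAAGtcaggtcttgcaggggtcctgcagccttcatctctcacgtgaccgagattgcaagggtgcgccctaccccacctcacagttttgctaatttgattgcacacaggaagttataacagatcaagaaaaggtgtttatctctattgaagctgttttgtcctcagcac
Tnfrsf19: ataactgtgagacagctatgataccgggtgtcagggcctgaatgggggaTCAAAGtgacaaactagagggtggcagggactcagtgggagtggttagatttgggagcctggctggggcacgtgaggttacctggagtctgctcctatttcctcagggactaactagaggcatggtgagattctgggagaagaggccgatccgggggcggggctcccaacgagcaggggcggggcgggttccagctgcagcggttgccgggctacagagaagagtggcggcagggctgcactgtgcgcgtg
The windows of Axin2, Nkd1 and Lgr6 had no match, which says only that these letters are not in them. The windows shown for Nkd1, Lef1 and Tnfrsf19 lie inside the gene bounds, downstream of the outer 5′ ends at 88521354, 131110471 and 61046490. Counts near the 3′ end of transcripts cannot tell which start was used.

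The matrices held 40268563 UMIs in 24209 barcodes for AAV-Isl1 plus noise and 38330528 UMIs in 21068 barcodes for noise only, far above the 1600 cells loaded per library according to the labels, and 145 barcodes occurred in both. After filtering, 21312 barcodes of AAV-Isl1 plus noise and 18756 of noise only were kept and are called cells here, with medians of 1080 and 1048 UMIs. They formed 28 clusters, built without the 10 genes and called by their leading gene (the gene with the highest fold over all other cells), of which 19 were put into 13 marker-based classes. The tissue is labelled sensory epithelium, but hair cell-like cells made up 1.48% of the cells in AAV-Isl1 plus noise and 0.491% in noise only, and cochlear non-sensory epithelium-like cells 4.21% and 5.20%. Isl1 stood at 584 CPM (UMIs per 1000000 UMIs of the cells summed) in hair cell-like cells of AAV-Isl1 plus noise and 49.0 CPM in those of noise only, and in the non-sensory epithelium-like cells it was at 598 CPM in AAV-Isl1 plus noise and 110.4 CPM in noise only, beside 42.3 and 50.7 CPM in erythroid-like cells. Whether transcripts of the virus are among these Isl1 counts was not tested.

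The densest Wnt target RNA was found in 1 small cluster led by Emilin2, the gene of an extracellular matrix protein. Markers put it in the fibrocyte or mesenchyme-like class (Pdgfra, Emcn, Tbx18 and Pou3f4), but others of that list, among them Coch, Otos, Col1a2 and Dcn, did not pass. Emcn was also in the endothelial list, and Emilin2 itself was in the marker list of cochlear non-sensory epithelium. The cluster is therefore called the Emilin2 cluster. It held 447 cells in AAV-Isl1 plus noise and 945 in noise only. Nkd1 stood there at 203 CPM (165 to 247) in AAV-Isl1 plus noise and 275 CPM (249 to 304) in noise only. Axin2 stood at 169.6 CPM (135 to 210.5) in AAV-Isl1 plus noise and 164 CPM (144 to 187) in noise only. For Nkd1, Axin2 and Tnfrsf19 this was the cluster with the highest level in both libraries, although the Axin2 interval overlapped that of the Ccl11 cluster in both.

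The other target genes of the Emilin2 cluster were Notum, Tnfrsf19, Lef1 and Lgr6. Notum, which was among its 10 leading genes, had 66 of its 124 UMIs there in AAV-Isl1 plus noise and 245 of 344 in noise only, at 136 and 171 CPM. Tnfrsf19 was at 184 CPM (148 to 226) in AAV-Isl1 plus noise and 176 CPM (155 to 199) in noise only. Lef1 was at 139 CPM in AAV-Isl1 plus noise and 181 CPM in noise only. Lgr6 was at 33.1 CPM from 16 UMIs in AAV-Isl1 plus noise and 40.5 CPM from 58 UMIs in noise only, whereas Lgr5 had 1 UMI there in AAV-Isl1 plus noise and 4 in noise only. Feedback inhibitors, a TCF/LEF factor and Tnfrsf19 thus stood together in a cluster with almost no Lgr5 RNA.

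**Figure D1:**
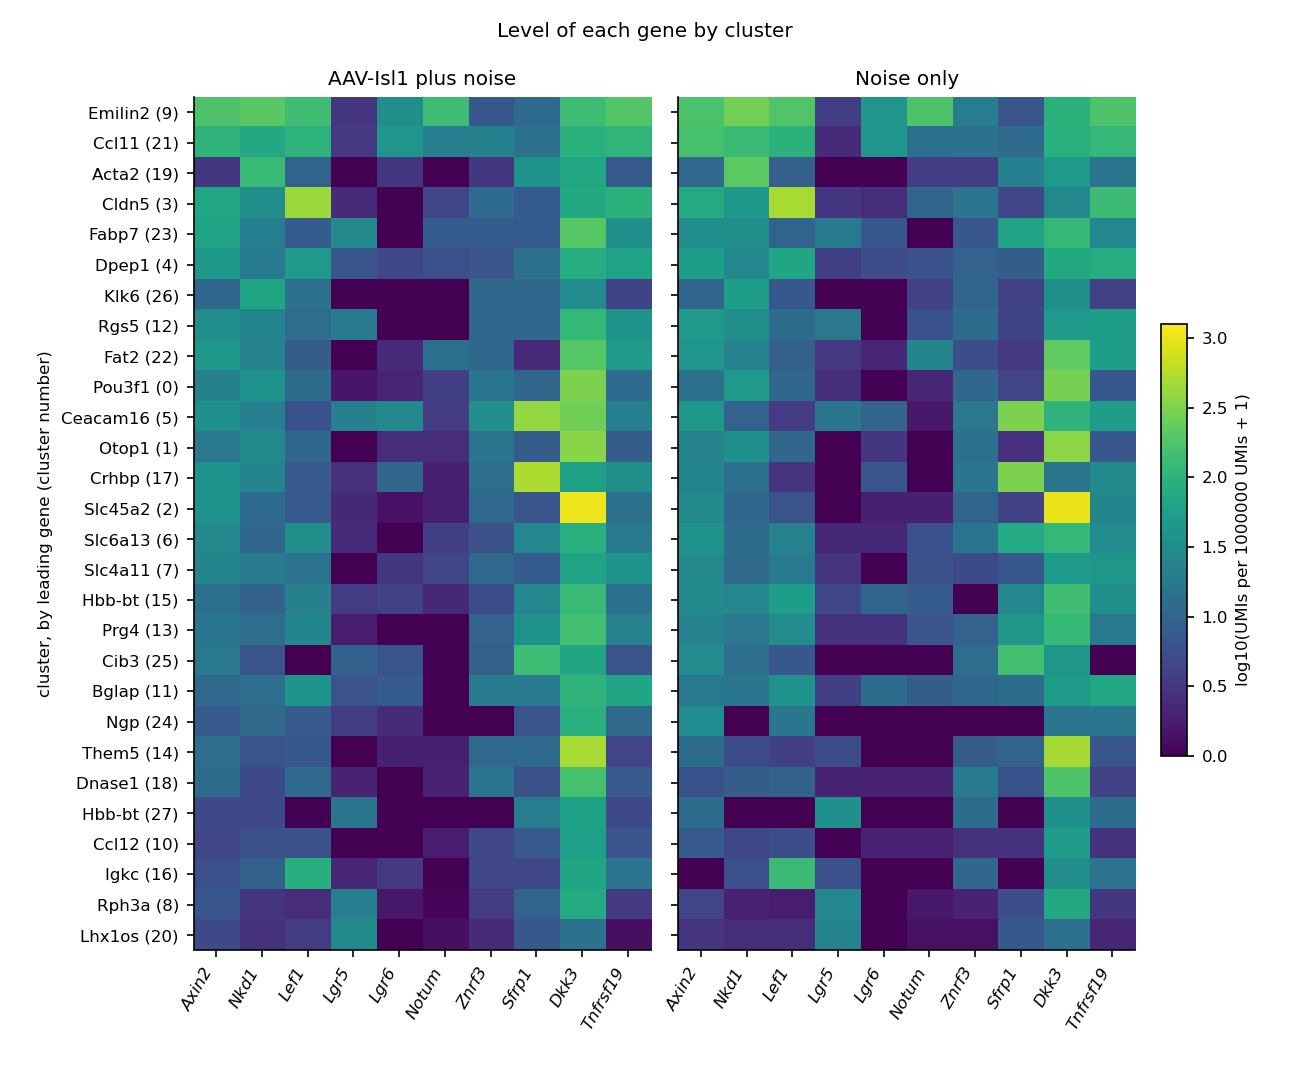
Level of the 10 genes (columns) in the 28 clusters (rows, by leading gene and cluster number, ordered by the summed Axin2 and Nkd1 level), AAV-Isl1 plus noise on the left and noise only on the right, as log10 of UMIs per 1000000 UMIs plus 1. The Emilin2 cluster in the top row is bright for Axin2, Nkd1, Lef1, Notum and Tnfrsf19 in both libraries, and the Cldn5 cluster for Lef1.

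Endothelial-like cells, the Cldn5 cluster, were the main site of Lef1. They held 620 of 1144 Lef1 UMIs in AAV-Isl1 plus noise and 950 of 1641 in noise only, at 428 CPM (395 to 463) and 491 CPM (460.0 to 523). Tnfrsf19 stood at 96.7 CPM in these cells in AAV-Isl1 plus noise and 133 CPM in noise only, Axin2 at 69.7 and 77.0 CPM, and Nkd1 at 33.1 and 43.4 CPM. Lef1 was also read in the Igkc cluster, which mixed T and B cell markers and stayed unnamed, at 85.9 CPM in AAV-Isl1 plus noise and 128 CPM in noise only. Lef1 is also known for its part in lymphocyte development, and the Igkc cluster had 4 UMIs of Axin2 in AAV-Isl1 plus noise and 0 in noise only.

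The unnamed Ccl11 cluster carried the fibrocyte or mesenchyme markers Dcn, Pdgfra, Tbx18, Pou3f4 and Apod and most of the same target genes. It also had 3 markers of basal cells of the stria, and no fibrocyte marker was among its 10 leading genes. Axin2 stood there at 102 CPM in AAV-Isl1 plus noise and 156.5 CPM in noise only, and Nkd1 at 73.4 CPM in AAV-Isl1 plus noise and 127 CPM in noise only. Lef1 was at 100.2 CPM in AAV-Isl1 plus noise and 96.9 CPM in noise only, and Tnfrsf19 at 105 and 115 CPM. Notum had only 9 UMIs there in each library. Lgr6 was at 40.1 CPM in AAV-Isl1 plus noise and 41.5 CPM in noise only, which was 15.8% of its UMIs in AAV-Isl1 plus noise and 20.5% in noise only, beside 14.0% and 39.7% in the Emilin2 cluster.

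Nkd1 was also read where the other targets were low. The Acta2 cluster, of the pericyte or smooth muscle-like class, had 123 CPM (93.3 to 159.6) of Nkd1 in AAV-Isl1 plus noise and 208 CPM (177 to 243) in noise only, but 1 UMI of Axin2 in AAV-Isl1 plus noise and 8 in noise only. In Schwann or satellite glia-like cells Nkd1 stood at 32.7 CPM in AAV-Isl1 plus noise and 40.6 CPM in noise only, and this large class held 17.6% and 18.4% of its UMIs. The unnamed Klk6 cluster, led also by the oligodendrocyte genes Mog and Ermn, had 67.6 CPM from 20 UMIs in AAV-Isl1 plus noise and 52.7 CPM from 17 UMIs in noise only.

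The share of cells with target RNA was read at equal depth, with each cell thinned to 1000 UMIs and shallower cells left out. In the Emilin2 cluster 301 cells of AAV-Isl1 plus noise and 374 of noise only were left out, and Nkd1 was seen in 19.9% of the other 146 cells of AAV-Isl1 plus noise and 24.2% of the other 571 cells of noise only. In thinned erythroid-like cells, which should lack the gene, it was seen in 0.842% of 713 cells of AAV-Isl1 plus noise and 0.957% of 209 cells of noise only. Without thinning the shares were 18.8% in AAV-Isl1 plus noise and 30.6% in noise only in the Emilin2 cluster (median depths of 824 and 1099 UMIs), against 1.7% and 5.63% in erythroid-like cells (median depths of 2001 and 2369 UMIs). Tnfrsf19 was seen in 21.2% of thinned Emilin2 cells in AAV-Isl1 plus noise and 18.4% in noise only, against 0.982% and 0.957% of erythroid-like cells. Both genes were thus far above the share in erythroid-like cells in both libraries.

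Cells with UMIs of several target genes were also counted. Whether genes met in a cell more often than their separate shares would give was not tested. Of 6 genes picked after their levels were seen (Axin2, Nkd1, Lef1, Notum, Lgr6 and Tnfrsf19), at least 1 was seen in 61.0% of thinned Emilin2 cells in AAV-Isl1 plus noise and 63.0% in noise only, and at least 2 in 20.5% (14.3 to 28.0) and 25.0% (21.5 to 28.8). Endothelial-like cells had at least 2 in 7.93% of cells in AAV-Isl1 plus noise and 10.4% in noise only, and the Ccl11 cluster in 4.78% and 9.15%. In the larger erythroid-like cluster at least 1 was seen in 4.81% of cells in AAV-Isl1 plus noise and 7.96% in noise only, and at least 2 in 0.451% and 1.99%. For the Emilin2, Cldn5 and Ccl11 clusters the intervals of the libraries overlapped. Over all kept cells of this depth, at least 1 of the genes was seen in 9.54% of cells in AAV-Isl1 plus noise and 15.6% in noise only.

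**Figure D2:**
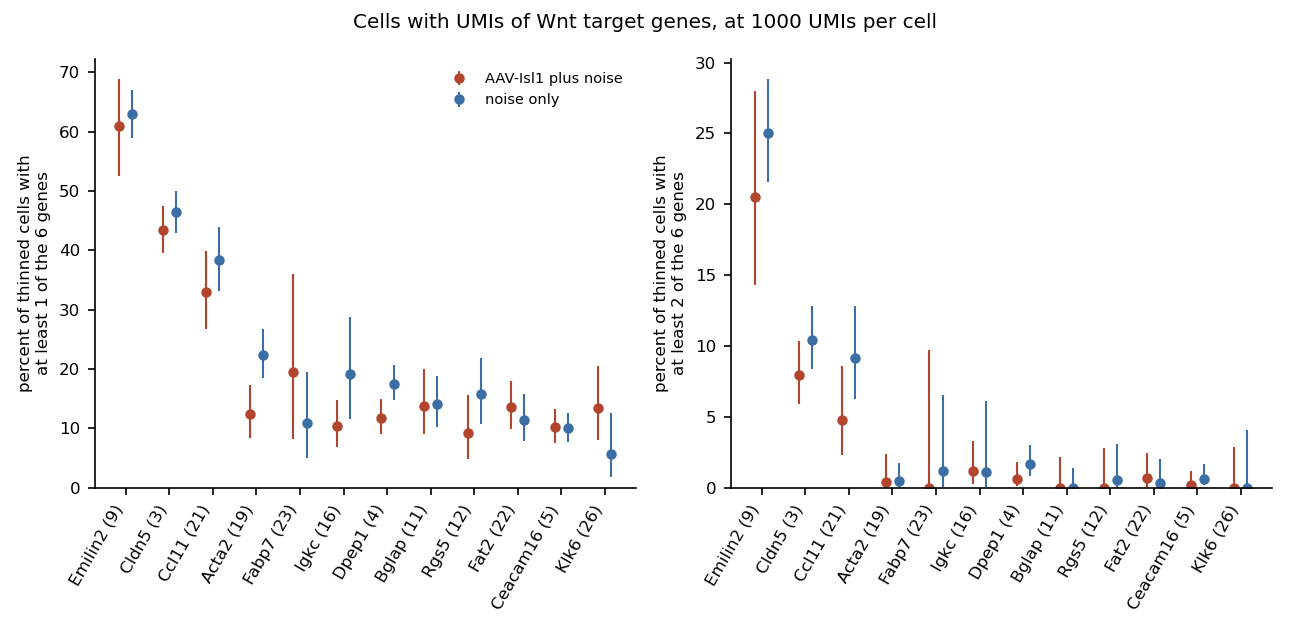
Percent of cells, thinned to 1000 UMIs, with a UMI of at least 1 (left) and at least 2 (right) of Axin2, Nkd1, Lef1, Notum, Lgr6 and Tnfrsf19 in 12 clusters, AAV-Isl1 plus noise in red left of noise only in blue, with exact 95% binomial intervals. The Emilin2 cluster stands highest in both panels, at 61.0% and 63.0% in the left one.

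Over all kept cells, 4 of the 10 genes (Nkd1, Lef1, Notum and Tnfrsf19) were at least 1.5-fold lower in AAV-Isl1 plus noise and none was at least 1.5-fold higher. Among all 17115 genes with at least 20 UMIs in both libraries together, 3.68% were at least 1.5-fold lower and 7.55% at least 1.5-fold higher. The median log2 ratio was -0.46 for the 10 genes and -0.02 for all genes. As the 10 genes were chosen with earlier results of these libraries known, this is a description.

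Nkd1 (chromosome 8, 88521354 to 88594884, plus strand, GRCm38) had 621 UMIs at 17.6 CPM in AAV-Isl1 plus noise and 1178 UMIs at 35.0 CPM in noise only, a ratio of 0.503 (0.455 to 0.555). Tnfrsf19 (chromosome 14, 60963875 to 61046490, minus strand) had 762 UMIs at 21.6 CPM in AAV-Isl1 plus noise and 1196 UMIs at 35.6 CPM in noise only, a ratio of 0.608 (0.554 to 0.666). Notum had the lowest ratio of the 10 genes, 0.344 (0.278 to 0.423), with 3.52 CPM in AAV-Isl1 plus noise and 10.2 CPM in noise only. Lef1 had 32.4 CPM in AAV-Isl1 plus noise and 48.8 CPM in noise only, a ratio of 0.665 (0.616 to 0.717). Axin2 had 22.5 CPM in AAV-Isl1 plus noise and 31.7 CPM in noise only, and its ratio of 0.711 (0.648 to 0.780) did not reach 1.5-fold. All 5 ratios lay below 1 beyond counting error.

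Cells with these genes made up a smaller part of the AAV-Isl1 plus noise library. The Emilin2 cluster was 2.10% (1.91 to 2.30) of the cells in AAV-Isl1 plus noise and 5.04% (4.73 to 5.36) in noise only, a ratio of 0.416 (0.371 to 0.466). The Acta2 cluster was 1.79% of the cells in AAV-Isl1 plus noise and 2.44% in noise only, the Ccl11 cluster 1.5% and 2.05%, and endothelial-like cells 5.62% and 6.17%. Schwann or satellite glia-like cells were 20.7% in AAV-Isl1 plus noise and 35.3% in noise only. Blood cells were more frequent in AAV-Isl1 plus noise, with erythroid-like cells at 3.97% in AAV-Isl1 plus noise and 1.23% in noise only, neutrophil or progenitor-like cells at 2.09% and 0.133%, and the Igkc cluster at 3.44% and 1.04%.

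To see how far such shares account for the lower Nkd1 and Tnfrsf19, each overall ratio was split into 2 factors whose product is the ratio. The share part is the ratio when only the shares of UMIs of the cell classes are exchanged between libraries, and the within part is the ratio when only the levels within classes are exchanged, each averaged over both ways of holding the other. Over 13 classes and 9 unnamed clusters, Nkd1 had a share part of 0.765 (0.753 to 0.777) and a within part of 0.657 (0.596 to 0.725). Shares thus made up 39.0% of its log2 difference. With the class levels of noise only and the shares of AAV-Isl1 plus noise, Nkd1 would have stood at 26.4 CPM, beside 17.6 CPM in AAV-Isl1 plus noise and 35.0 CPM in noise only. Without blood cells the share part of Nkd1 was -0.32 on the log2 scale, beside -0.39 with them. Tnfrsf19 had a share part of 0.820 (0.805 to 0.836) and a within part of 0.741 (0.675 to 0.813), with 39.8% of the log2 difference from shares. With shares of cells and mean CPM per cell, its log2 share part was -0.13, beside -0.29 with shares of UMIs.

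The balance was different over the 28 clusters. There Nkd1 had a share part of 0.627 (0.611 to 0.643) and a within part of 0.802 (0.725 to 0.887), with 68.0% of the log2 difference from shares. Tnfrsf19 had a share part of 0.740 (0.720 to 0.760) and a within part of 0.821 (0.747 to 0.903), with 60.5% from shares. The fibrocyte or mesenchyme-like class had a different make-up in the libraries: its Dpep1, Slc4a11 and Emilin2 clusters held 987, 994 and 447 cells in AAV-Isl1 plus noise and 1043, 581 and 945 cells in noise only. Nkd1 over the whole class stood at 47.8 CPM in AAV-Isl1 plus noise and 115 CPM in noise only, a ratio of 0.415 (0.341 to 0.502), while the ratio was 0.736 within the Emilin2 cluster, 0.684 (0.377 to 1.21) within the Dpep1 cluster and 1.61 (0.763 to 3.62) within the Slc4a11 cluster. Shares therefore gave the smaller part of the log2 difference of both genes by these classes and the larger part by clusters. By classes built at clustering resolution 0.5 they also gave the larger part, with log2 values of -0.59 for share and -0.40 for within of Nkd1 and -0.41 and -0.31 of Tnfrsf19. How much of the lower level is a matter of shares thus depended on how cells were grouped. For these 2 genes, neither split at resolution 1 had a within part whose interval included 1.

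**Figure D3:**
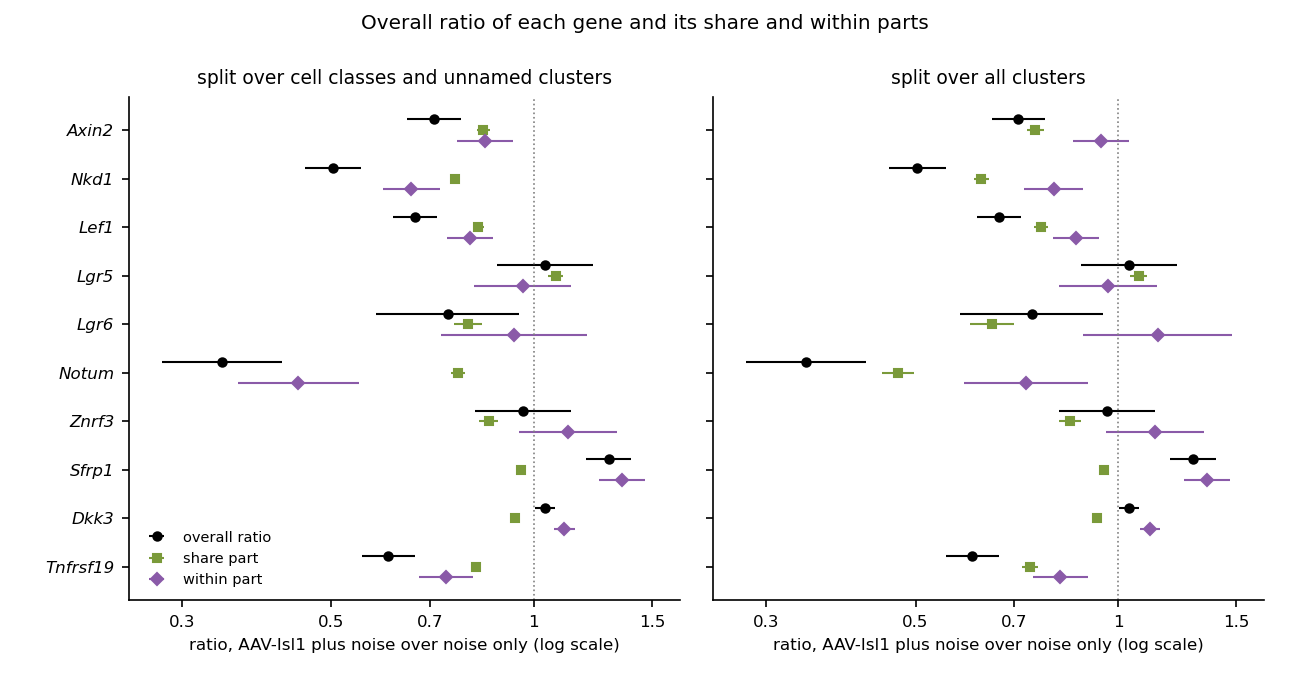
Overall ratio (black circles), share part (green squares) and within part (purple diamonds) of each gene, AAV-Isl1 plus noise over noise only on a log scale with 95% intervals for counting error, split over classes and unnamed clusters (left panel) and over all 28 clusters (right panel). For Nkd1 the share part is 0.765 in the left panel and 0.627 in the right one, and the within part is 0.657 and 0.802.

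The Emilin2 cluster alone held 51.3% of the CPM difference of Nkd1 between the libraries, 39.6% through its share of UMIs and 11.7% through its level. The Acta2 cluster held 17.5%, about equally through share (8.88%) and level (8.64%), and the Ccl11 cluster 10.3%. The Pou3f1 and Otop1 clusters of Schwann or satellite glia-like cells held 9.92% and 7.99%, of which 6.42% and 5.76% came through their shares. For Tnfrsf19 the Emilin2 cluster held 35.6% of the difference, with 37.2% through its share and -1.59% through its level. Endothelial-like cells held 26.5% (13.6% through share and 12.9% through level), and the Ceacam16 cluster of epithelium-like cells 13.2%, of which 9.62% came through the level.

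**Figure D4:**
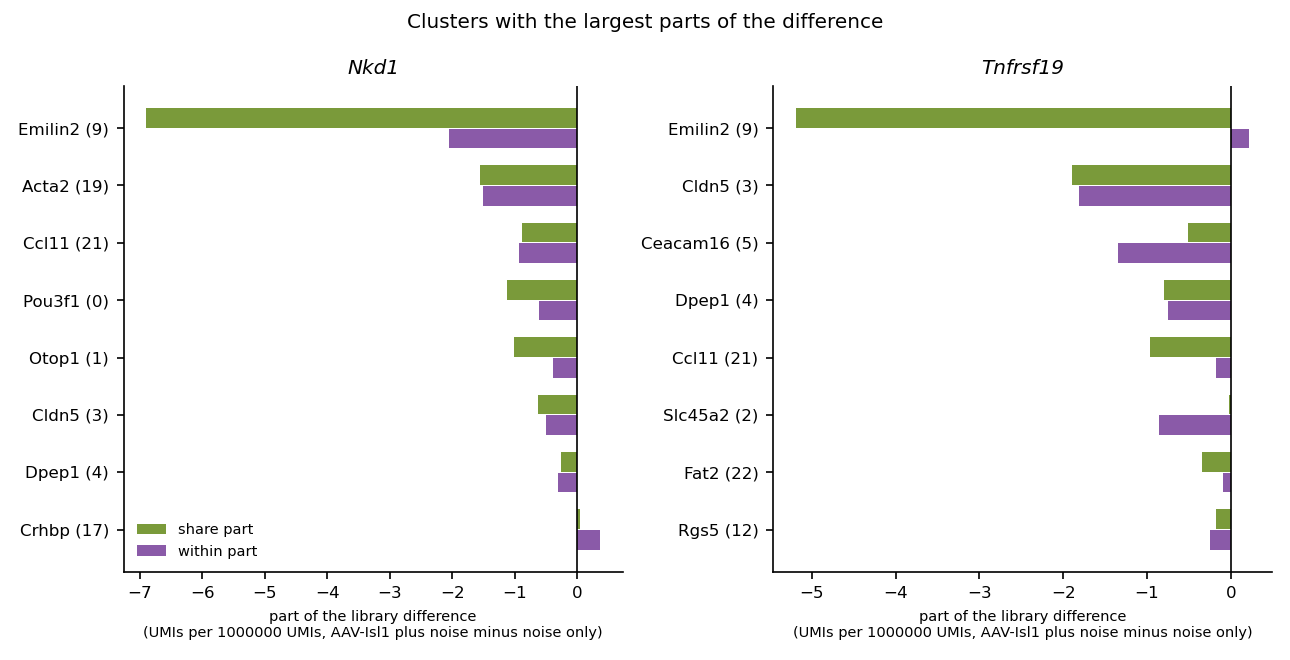
Parts of the difference in Nkd1 (left panel) and Tnfrsf19 (right panel), AAV-Isl1 plus noise minus noise only in UMIs per 1000000 UMIs, for 8 clusters each, with the share part in green above the within part in purple. The share part of the Emilin2 cluster is the longest bar for both genes, -6.89 for Nkd1 and -5.19 for Tnfrsf19.

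Without the Emilin2 cluster, Nkd1 had 15.0 CPM in AAV-Isl1 plus noise and 24.4 CPM in noise only, a ratio of 0.618 (0.552 to 0.691). Tnfrsf19 then had 19.4 CPM in AAV-Isl1 plus noise and 29.3 CPM in noise only, a ratio of 0.660 (0.597 to 0.729). Both thus stayed lower outside that cluster. Notum without it had 58 UMIs in AAV-Isl1 plus noise and 99 in noise only, a ratio of 0.542 (0.385 to 0.757), and Lgr6 had a ratio of 1.03 (0.765 to 1.39).

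Axin2 had a share part of 0.754 and a within part of 0.944 (0.857 to 1.04) over clusters, and 0.840 and 0.846 (0.770 to 0.930) over classes. Notum had a share part of 0.471 and a within part of 0.729 (0.590 to 0.902) over clusters, and 0.770 and 0.446 (0.363 to 0.549) over classes. Lef1 had a share part of 0.768 and a within part of 0.865 (0.80 to 0.936) over clusters, and 0.827 and 0.804 (0.744 to 0.869) over classes. For Notum and Lef1, as for Nkd1 and Tnfrsf19, shares made up the smaller part of the log2 difference over classes (24.4% and 46.6%) and the larger part over clusters (70.4% and 64.6%). Lgr6 had a share part of 0.650 and a within part of 1.15 (0.887 to 1.48) over clusters. For Axin2 and Lgr6 the within part over clusters could thus not be told from 1 at this depth.

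Within the Emilin2 cluster, Axin2 and Tnfrsf19 had ratios of 1.03 (0.793 to 1.33) and 1.04 (0.811 to 1.34), and Nkd1 had 0.736 (0.584 to 0.920). Lef1 had 0.765 (0.576 to 1.00) and Notum 0.797 (0.598 to 1.05). The intervals of these 5 genes overlapped, and of them only that of Nkd1 lay wholly below 1. Of the 10 genes 8 had at least 20 UMIs in the cluster. Among these 1 was at least 1.5-fold lower, Znrf3 with 3 UMIs in AAV-Isl1 plus noise and 27 in noise only (0.329, 0.0638 to 1.07), and none was at least 1.5-fold higher, while 10.8% of the 8144 genes measured there were at least 1.5-fold lower and 11% at least 1.5-fold higher. The share of the 10 genes was thus close to that of all genes in this cluster.

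Ratios of Nkd1 within single clusters were below 1 in 11 of 17 clusters with at least 20 UMIs. The interval lay wholly below 1 in 4 of the 17, among them the larger erythroid-like cluster, and wholly above 1 in 1. Such counts were not taken for all genes, so they only describe. In the Acta2 cluster the ratio was 0.593 (0.430 to 0.807) and in the Ccl11 cluster 0.576 (0.375 to 0.867). In the Pou3f1, Otop1 and Cldn5 clusters it was 0.797, 0.80 and 0.764, each with an interval that included 1. Cochlear non-sensory epithelium-like cells had a ratio of 2.38 (1.19 to 4.96), from 20.7 CPM in AAV-Isl1 plus noise and 8.69 CPM in noise only. The Crhbp cluster had a ratio of 1.91 (0.957 to 4.01), from 24.0 CPM in AAV-Isl1 plus noise and 12.6 CPM in noise only, and the Slc4a11 cluster 1.61. The noise-only levels of all 3 lay below the 23.1 CPM of erythroid-like cells in that library, and whether they are background was not tested.

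Tnfrsf19 likewise had ratios below 1 in 11 of 17 clusters. The interval lay wholly below 1 in 4, among them again the larger erythroid-like cluster, and wholly above 1 in 0. In endothelial-like cells it had 140 UMIs in AAV-Isl1 plus noise and 258 in noise only, a ratio of 0.725 (0.586 to 0.894). In the Ceacam16 cluster of epithelium-like cells it stood at 20.7 CPM from 25 UMIs in AAV-Isl1 plus noise and 53.4 CPM from 86 UMIs in noise only, a ratio of 0.388 (0.238 to 0.611). In the Ccl11 cluster the ratio was 0.91 (0.622 to 1.32), and in osteoblast or bone-like cells 0.923 (0.589 to 1.44). In stria intermediate cell or melanocyte-like cells Tnfrsf19 had 12.9 CPM in AAV-Isl1 plus noise and 25.4 CPM in noise only, about the level of erythroid-like cells. The clearest lower levels of Tnfrsf19 within clusters were thus in endothelial-like and epithelium-like cells, beside a ratio of 1.04 in the Emilin2 cluster.

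**Figure D5:**
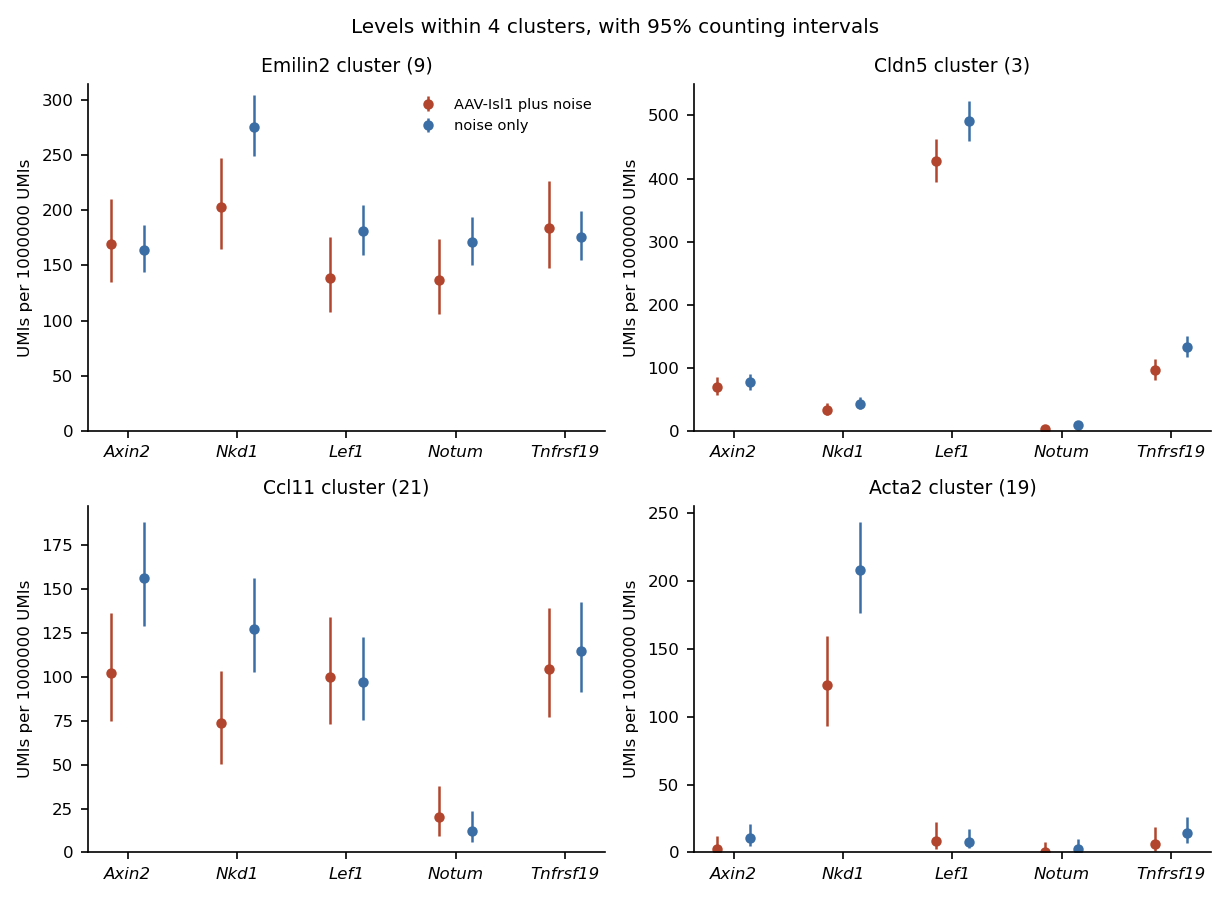
Level of 5 target genes within the Emilin2, Cldn5, Ccl11 and Acta2 clusters in UMIs per 1000000 UMIs, AAV-Isl1 plus noise in red left of noise only in blue, with exact 95% Poisson intervals. In the Acta2 cluster the Nkd1 intervals are apart (123 and 208), while in the Emilin2 cluster those of Axin2 and Tnfrsf19 overlap.

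Erythroid-like cells, which make hemoglobin and should lack these genes, also differed. Nkd1 stood there at 7.50 CPM from 14 UMIs in AAV-Isl1 plus noise and 23.1 CPM from 15 UMIs in noise only, and Axin2 at 11.3 and 26.1 CPM. Lef1 was at 18.2 CPM in AAV-Isl1 plus noise and 46.1 CPM in noise only, and Tnfrsf19 at 12.3 and 30.7 CPM. With these levels subtracted, the ratio of Nkd1 was 0.773 in the Emilin2 cluster, 0.626 in the Acta2 cluster and 0.632 in the Ccl11 cluster, but 1.26 in the Cldn5 cluster, 1.26 in the Pou3f1 cluster and 1.69 in the Otop1 cluster. In the Dpep1 cluster the ratio of Nkd1 was 2.73, against 0.684 before. The ratio of Tnfrsf19 was then 1.18 in the Emilin2 cluster and 0.823 in endothelial-like cells. The direction of Nkd1 thus turned with this subtraction in the Cldn5, Pou3f1, Otop1 and Dpep1 clusters and not in the Emilin2, Acta2 and Ccl11 clusters. Tnfrsf19 in the Ccl11 cluster turned too, to 1.10 from 0.91. The erythroid-like level was not a floor, as some clusters lay below it. In noise only, Lef1 stood at 5.16 CPM in the Slc45a2 cluster and Tnfrsf19 at 5.88 CPM in the Otop1 cluster. No ratio could be given where the subtraction left a negative value.

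In endothelial-like cells 7 of the 10 genes had at least 20 UMIs. Among them 1 was at least 1.5-fold lower (Notum, 5 UMIs in AAV-Isl1 plus noise and 18 in noise only) and 1 at least 1.5-fold higher (Dkk3, 110 and 54 UMIs), while 5.98% of the 9973 genes measured there were at least 1.5-fold lower and 8.72% at least 1.5-fold higher. Their Dkk3 levels were 75.9 CPM in AAV-Isl1 plus noise and 27.9 CPM in noise only. Both lay below the 117 and 128 CPM of erythroid-like cells, and whether they are background was not tested. Lef1, the gene with most UMIs in these cells among the 10, had a ratio of 0.872 (0.787 to 0.966).

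The R-spondin receptor Lgr5 was read mainly in neurons. Neuron-like cells held 141 of its 297 UMIs in AAV-Isl1 plus noise and 134 of 273 in noise only, at 21.1 and 25.9 CPM, and the unnamed Lhx1os cluster, which had 10 neuron markers, 80 in AAV-Isl1 plus noise and 62 in noise only, at 28.3 and 23.4 CPM. Cochlear non-sensory epithelium-like cells had 21.5 CPM (14.1 to 31.5) from 26 UMIs in AAV-Isl1 plus noise and 15.5 CPM (10.0 to 22.9) from 25 UMIs in noise only. The marker list of this class covers supporting, sulcus, limbus and root cells together. Fgfr3, Prox1 and Hes5 of that list did not pass, so whether supporting cells are among these cells is not shown. The intervals of the 3 sites overlapped in each library. After thinning, Lgr5 was seen in 1.49% of epithelium-like cells in AAV-Isl1 plus noise and 1.78% in noise only (426 and 357 cells left out), against 0.281% of erythroid-like cells in AAV-Isl1 plus noise and 0 of 209 in noise only, where a limit of 3 counts allows up to 1.44%. Unthinned shares were 2.23% in AAV-Isl1 plus noise and 2.15% in noise only, at median depths of 1042 and 1267 UMIs, against 0.827% and 1.73% of erythroid-like cells. In thinned neuron-like cells Lgr5 was seen in 1.16% in AAV-Isl1 plus noise and 2.45% in noise only, and in the Lhx1os cluster in 3.98% and 2.05%. Lgr5 over all kept cells had a ratio of 1.04 (0.877 to 1.23).

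Lgr6 and Znrf3 were higher in the epithelium-like cells of AAV-Isl1 plus noise. Lgr6 stood there at 29.8 CPM (20.9 to 41.2) from 36 UMIs in AAV-Isl1 plus noise and 9.31 CPM (5.21 to 15.4) from 15 UMIs in noise only, a ratio of 3.2 (1.71 to 6.29). Its erythroid-like levels were 2.68 CPM in AAV-Isl1 plus noise and 7.69 CPM in noise only, so the noise-only level was near that of erythroid-like cells. Znrf3 stood at 32.3 CPM from 39 UMIs in AAV-Isl1 plus noise and 16.1 CPM from 26 UMIs in noise only, a ratio of 2.00 (1.19 to 3.42). Over all kept cells the ratio of Znrf3 was 0.964 (0.815 to 1.14) and that of Lgr6 0.745 (0.578 to 0.958).

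Sfrp1 was read mainly in epithelium. The unnamed Crhbp cluster had the non-sensory epithelium markers Tecta, Otogl, Otog and Otoa, but also 3 markers of stria marginal or dark cells. It held 606 of 1502 Sfrp1 UMIs in AAV-Isl1 plus noise and 314 of 1108 in noise only. Its levels were 520.4 CPM and 304 CPM, a ratio of 1.71 (1.49 to 1.97). Cochlear non-sensory epithelium-like cells had 396 CPM from 479 UMIs in AAV-Isl1 plus noise and 303 CPM from 488 UMIs in noise only, a ratio of 1.31 (1.15 to 1.49), but its log2 value was -0.23 with cells clustered at resolution 2.0 and -0.23 with cells filtered at 500 genes and 10% mitochondrial UMIs. Hair cell-like cells had 135 CPM from 50 UMIs in AAV-Isl1 plus noise and 147 CPM from 24 UMIs in noise only. Over all kept cells Sfrp1 stood at 42.6 CPM in AAV-Isl1 plus noise and 33.0 CPM in noise only, a ratio of 1.29 (1.2 to 1.4), with a share part of 0.952, which lay above 1 under 3 alternatives, and a within part of 1.36 (1.25 to 1.47) over clusters. Without the Crhbp cluster the ratio was 1.08 (0.979 to 1.19), an interval that included 1. Without the Ceacam16 cluster of epithelium-like cells it was 1.55 (1.40 to 1.72).

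Dkk3 had its highest level in stria intermediate cell or melanocyte-like cells, the pigment cells of the stria vascularis, which held 37.8% of its UMIs in either library. It stood there at 1061 CPM in AAV-Isl1 plus noise and 1008 CPM in noise only. The unnamed Them5 cluster had 487 CPM in AAV-Isl1 plus noise and 474 CPM in noise only, and Schwann or satellite glia-like cells had 320.4 and 312 CPM. The interval of the ratio included 1 in all 3. Cochlear non-sensory epithelium-like cells had 263 CPM in AAV-Isl1 plus noise and 102 CPM in noise only, of which only the AAV-Isl1 plus noise level was above that of erythroid-like cells. Over all kept cells Dkk3 had 192 CPM in AAV-Isl1 plus noise and 184 CPM in noise only, a ratio of 1.04 (1.00 to 1.08). Over clusters it had a share part of 0.931 (0.924 to 0.937) and a within part of 1.12 (1.08 to 1.16). Of 27 clusters with at least 20 UMIs, the interval of the ratio lay wholly above 1 in 9 and wholly below 1 in 0. Such counts were not taken for all genes, and how far free RNA enters them was not tested.

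Across 19 classes and unnamed clusters with at least 100 cells in each library, taken per library as 38 points, Axin2 and Tnfrsf19 were the most alike of the 10 genes, with a Pearson r of 0.837 on log2 of CPM plus 10. Axin2 and Nkd1 had an r of 0.763, Nkd1 and Tnfrsf19 0.713, and Axin2 and Notum 0.680. Lgr5 and Axin2 had an r of -0.312. Among all genes with at least 100 UMIs, those most like Nkd1 were Lrrc8b (0.843), Apcdd1 (0.823) and Cpm (0.818). Those most like Tnfrsf19 were Irx3 (0.898), Rab13 (0.857) and Irx5 (0.849), and those most like Axin2 were Lima1 (0.871), Prex2 (0.839) and Tnfrsf19. Notum was most like Tnfaip6 (0.906), Slc1a2 (0.88) and Adh1 (0.86), and Lef1 was most like Dnah8 (0.896), Gbp9 (0.855) and Gbp4 (0.848). Sfrp1 was most like Krt19 (0.903), Otogl (0.898) and Rspo2 (0.888), and Dkk3 was most like Cyp2j6 (0.862), Cmtm5 (0.861) and Car14 (0.850). The genes most like Lgr5 were Dpf3 (0.912), Chst8 (0.91) and Ppfia3 (0.897), those most like Lgr6 were Mybpc1, Hunk and Scin (0.833 to 0.819), and those most like Znrf3 were Fkbp9, Tvp23b and Unc119b (0.822 to 0.786). The points share libraries and free RNA, so these values only describe the pattern.

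A wider list of 83 Wnt pathway genes was read by role over all kept cells. Of these 72 had at least 20 UMIs, 10 were at least 1.5-fold lower in AAV-Isl1 plus noise and 3 at least 1.5-fold higher, with a median log2 ratio of -0.13 beside -0.02 for all genes. Among all genes the shares past 1.5-fold were 3.68% and 7.55%. At 2-fold 4 genes of the list were lower and 1 higher, but the share of all genes past 2-fold was not taken. Most of the lower ones were in the list of secreted inhibitors, which includes the membrane-bound Apcdd1, with 6 of 10 measured (Sfrp5, Dkk2, Apcdd1, Wif1, Sost and Draxin). Sfrp5 stood at 21.3 CPM in AAV-Isl1 plus noise and 33.7 CPM in noise only, and Apcdd1 at 8.0 and 15.8 CPM. Sostdc1 had 82.0 CPM in AAV-Isl1 plus noise and 86.3 CPM in noise only, and Sfrp4 62.6 and 49.7 CPM. Sfrp5 was highest in the Otop1 cluster, whose share of cells was 9.18% in AAV-Isl1 plus noise and 17.3% in noise only, and Apcdd1 in the Emilin2 cluster, at 72.4 CPM in AAV-Isl1 plus noise and 96.5 CPM in noise only (0.750, 0.502 to 1.09). Dkk2 was highest in the Crhbp cluster, at 215 CPM in AAV-Isl1 plus noise and 457 CPM in noise only. That cluster had 2.43% of the cells in AAV-Isl1 plus noise and 2.13% in noise only. Sost was highest in the Bglap cluster, at 63.9 CPM in AAV-Isl1 plus noise and 182 CPM in noise only.

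Among the ligands 3 of 12 measured were at least 1.5-fold higher (Wnt4, Wnt3 and Wnt2) and none lower, and of these 3 only Wnt4 had an interval that did not include 1. Wnt4 stood at 53.1 CPM in AAV-Isl1 plus noise and 21.2 CPM in noise only, a ratio of 2.50 (2.29 to 2.73), and was highest in the unnamed Slc6a13 cluster at 787 and 513 CPM, a cluster with 5.66% of the cells in AAV-Isl1 plus noise and 2.13% in noise only. Wnt5a had 118 CPM in AAV-Isl1 plus noise and 111 CPM in noise only. The R-spondin gene Rspo3 had 56.3 CPM in AAV-Isl1 plus noise and 51.3 CPM in noise only, highest in the Prg4 cluster, and none of 3 measured R-spondin genes was 1.5-fold apart. In the Emilin2 cluster Rspo1 had 8 UMIs in AAV-Isl1 plus noise and 58 in noise only, a ratio of 0.408 (0.168 to 0.859). Other genes of the list went the other way there. The inhibitor gene Wif1 had 32 UMIs in AAV-Isl1 plus noise and 54 in noise only, a ratio of 1.75 (1.10 to 2.76).

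Of 16 receptors only Fzd10 was at least 1.5-fold lower, at 3.15 CPM in AAV-Isl1 plus noise and 6.75 CPM in noise only, and Lrp6, Fzd3 and Ryk had ratios of 0.915, 1.00 and 0.971. Of 13 cytoplasmic genes only Nkd2, the relative of Nkd1, was lower, at 4.65 CPM in AAV-Isl1 plus noise and 8.03 CPM in noise only, and the beta-catenin gene Ctnnb1 had a ratio of 0.907. None of 9 nuclear genes and neither secretion gene was 1.5-fold apart. Rnf43, the partner of Znrf3, had 6.01 CPM in AAV-Isl1 plus noise and 9.13 CPM in noise only, and the target Sp5 had 1.11 and 2.44 CPM. Within the Emilin2 cluster 42 genes of the list were measured. Of these 4 were at least 1.5-fold lower and 6 at least 1.5-fold higher, beside 10.8% and 11% of all genes. In endothelial-like cells 4 of 45 were lower and 9 higher, beside 5.98% and 8.72% of all genes. At 2-fold 1 was lower and 0 higher in the Emilin2 cluster, and 1 was lower and 4 higher in endothelial-like cells. The share of all genes past 2-fold was not taken in either.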

How the data were processed

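Single-cell libraries (10x Genomics 3′ v3.1) of 1 pooled sample per group were analysed. The authors deposited raw UMI counts per gene and barcode, made with Cell Ranger 5.0.1 per the file headers. The submitters' processing notes name Cell Ranger 5.0, STAR, Seurat 3.2.2 and mm10. Barcodes were kept from 300 genes upward where mitochondrial UMIs did not exceed 20%. Scrublet's own threshold marked 0 doublets in either library, so the 6% of barcodes with the highest scores were removed (1360 of AAV-Isl1 plus noise and 1197 of noise only). Cells were clustered in python 3.11.15 with scanpy 1.11.5 (50 principal components, 15 neighbours, Leiden resolution 1) without the 10 genes and named by 3 or more markers at least 4-fold up in at least 10% of cells. A rule that leaves clusters with a strong rival class unnamed was added after the clusters were seen. Counts were summed per library and cluster. Intervals are exact Poisson, Clopper-Pearson or conditional binomial ones from scipy 1.17.1 at 95%, and delta-method ones for the split, which was tested on simulated data. They cover counting error only. The 10 genes, the wider list, the markers and the rules were chosen with earlier results of these data known. Genes outside the 10 were named by likeness rank, by the 3 with most UMIs per role, or, for those past 1.5-fold and in the Emilin2 cluster, after their values were seen. The alternatives were other filters, resolutions, scalings, thinning and a subtraction of the erythroid-like level.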

Additional observations from a re-analysis of the deposited data

Results flagged for a closer look

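For 3 genes the ratio of AAV-Isl1 plus noise over noise only lay on opposite sides of 1 in different clusters, each beyond counting error. The differences between clusters were not tested, as there was 1 library per group. The ratio of Axin2 was 0.440 (0.217 to 0.908) in the larger erythroid-like cluster, led by Hbb-bt, and 1.66 (1.03 to 2.69) in the Pou3f1 cluster of Schwann or satellite glia-like cells. The ratio of Nkd1 was 0.305 (0.134 to 0.687) in the same Hbb-bt cluster and 2.38 (1.19 to 4.96) in the Ceacam16 cluster of cochlear non-sensory epithelium-like cells. The ratio of Sfrp1 was 0.116 (0.0028 to 0.726) in the Fabp7 cluster, from 1 UMI in AAV-Isl1 plus noise and 20 in noise only, and 2.74 (1.16 to 6.98) in the Pou3f1 cluster, from 17 UMIs in AAV-Isl1 plus noise and 9 in noise only, where the log2 value turned to -0.27 when clustering used the 10 genes and to -0.15 with doublets kept. Axin2 and Sfrp1 in the Pou3f1 cluster and Nkd1 in the Ceacam16 cluster lay below the erythroid-like level in noise only.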

How the results depend on the processing

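No paired analysis was possible because each group had 1 library, and no replicate could be left out for the same reason. Over 15 alternatives the log2 ratio of Nkd1 stayed between -1.15 and -0.91 and that of Tnfrsf19 between -0.92 and -0.51, and the share and within parts of both stayed below 0 in all 15. The share part of Nkd1 was -0.59 at resolution 0.5, -0.66 with clusters of resolution 2.0, -0.67 with clusters in place of classes, -0.44 with a stricter filter (500 genes, 10% mitochondrial UMIs), -0.32 without blood cells, -0.52 with thinned cells, -0.49 with cells of at least 1000 UMIs and -0.33 with shares of cells and mean CPM per cell. The share part of Tnfrsf19 under these settings was -0.41, -0.44, -0.43, -0.38, -0.24, -0.41, -0.42 and -0.13. The within part of Nkd1 was -0.40 at resolution 0.5, -0.33 with clusters of resolution 2.0 and -0.32 with clusters, and that of Tnfrsf19 was -0.28 with either set of clusters. The overall value was -1.15 for Nkd1 and -0.92 for Tnfrsf19 with cells of at least 1000 UMIs, and for Tnfrsf19 -0.87 with the stricter filter and -0.51 with mean CPM per cell. Directions turned for the Dkk3 class share part, log2, with thinned cells (0.0081), for the share part of Sfrp1 with clusters of resolution 2.0 (0.021), without blood cells (0.022) and with shares of cells (0.031), for Lef1 in the Dpep1 cluster with the erythroid-like level subtracted (0.48), the one ratio beyond counting error that this subtraction turned, for Sfrp1 in the Pou3f1 cluster when clustering used the 10 genes (-0.27) or kept doublets (-0.15), and for Sfrp1 in epithelium-like cells at resolution 2.0 (-0.23) and with the stricter filter (-0.23). The subtraction also turned ratios whose interval included 1, namely Nkd1 in the Cldn5, Pou3f1, Otop1 and Dpep1 clusters, Axin2 in the Cldn5, Dpep1 and Ceacam16 clusters, Tnfrsf19 and Lgr6 in the Ccl11 cluster and Znrf3 in the Slc45a2 and Otop1 clusters. The cause was not tested. The subtraction and the clusters of resolution 2.0 were chosen after seeing the data. Of the 10 genes, Lgr5, Lgr6 and Notum had at least 20 UMIs in only 3 clusters each.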
